A study of Mus musculus with 4 samples.

Results

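The leukocyte integrins described here are 10 genes, Itga4, Itga5, Itga6, Itgae, Itgal, Itgam, Itgax, Itgb1, Itgb2 and Itgb7, taken by symbol from the 24411 gene rows of the deposited count table. All 10 were found. RNA was sequenced from pro-B cells, early B cell precursors sorted from C57BL/6 mouse bone marrow by the surface markers B220, CD43 and HSA (CD24). The 2 knockout mice (KO, numbers 51 and 63) were Tnpo3fl/fl mb1Cre and the 2 control mice (WT, numbers 55 and 69) were Tnpo3+/+ mb1Cre, so that both genotypes carried the Cre recombinase, which is expressed from the B-lineage gene Cd79a. Tnpo3 encodes transportin 3, a nuclear import receptor for serine- and arginine-rich splicing factors. The sources used here give no ages, treatments or batches.

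Integrins are cell surface adhesion receptors made of an alpha and a beta subunit, which leave the endoplasmic reticulum only once paired. The beta subunits are shared: Itgb1 (CD29) pairs with the products of Itga4, Itga5 and Itga6 to bind VCAM-1, fibronectin and laminin, Itgb2 (CD18) pairs with those of Itgal, Itgam and Itgax to bind ICAMs and complement fragments, and Itgb7 pairs with those of Itga4 and Itgae to bind MAdCAM-1 and E-cadherin. In bone marrow, VLA-4, the pair of Itga4 and Itgb1, holds B cell precursors on stromal cells that display VCAM-1. Among blood cells Itgax (CD11c) is best known from dendritic cells and Itgam (CD11b) from neutrophils, monocytes and natural killer (NK) cells.

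Library totals ranged from 26211372 to 40647384 counts, of which the 10 integrin genes took 94713 and 61187 counts in KO mice 51 and 63, and 38640 and 33280 in WT mice 55 and 69. Tnpo3 itself was at 79.7 and 68.8 CPM (library-scaled counts after TMM) in the KO mice, against 159 and 148 CPM in the WT mice, a log2 fold change of -1.05 ± 0.14 (SE). Its adjusted p was 0.0108 by edgeR, or 0.0603 without KO mouse 63, and the whole-gene count includes exons outside any deleted part as well as 3.14% of exon bases shared with Irf5 on the opposite strand. Of the sort marker genes, Cd24a fell (488 and 583 CPM in KO, 2284 and 1905 CPM in WT) and Spn (CD43) rose (444 and 396 CPM in KO, 159 and 261 CPM in WT), with edgeR adjusted p-values of 0.00725 and 0.0492. Ptprc, the B220 gene, was at 911 and 1009 CPM in KO and at 750 and 371 CPM in WT (adjusted p 0.168, or 0.00908 without WT mouse 55 and 0.0355 with sex as a block). Spn missed the threshold with total counts as scaling (adjusted p 0.0541) or without KO mouse 51 (0.142), KO mouse 63 (0.105) or WT mouse 55 (0.0528). B-lineage markers were present in every library but lower in KO, where 8 of 10 fell and their summed level was 2517 and 1983 CPM, against 8354 and 9141 CPM in WT. All 8 plasmacytoid dendritic markers rose (4228 and 5562 CPM summed in KO, 477 and 132 CPM in WT). Of 8 conventional dendritic markers, 6 rose (1008 and 1216 CPM in KO, 133 and 81.8 CPM in WT). Highest among these in KO mice 51 and 63 were Flt3 (376 and 541 CPM) and Sirpa (283 and 342 CPM). Zbtb46 (2.03 and 2.32 CPM), Batf3 (1.07 and 0.531 CPM) and Xcr1 (0.223 and 0.664 CPM) were low there. All 8 neutrophil markers fell (174 and 40.0 CPM in KO, 3746 and 2909 CPM in WT). NK markers, of which 6 of 9 rose, stood at 767 CPM in KO mouse 51 and 228 CPM in KO mouse 63, against 33.8 and 28.4 CPM in the WT mice. Of the other lists, 2 of 8 T cell markers rose (222 and 155 CPM summed in KO, 58.8 and 94.4 CPM in WT). Of 7 monocyte and macrophage markers, 2 rose and 3 fell (1308 and 872 CPM summed in KO, 451 and 404 CPM in WT). Of 7 mast cell, basophil and eosinophil markers, 6 fell, with Fcer1a at 0 in both KO libraries. Of 7 erythroid and platelet markers, 6 were tested and 4 fell. Of 6 stromal and endothelial markers, 1 rose and 1 fell (366 and 405 CPM summed in KO, 237 and 184 CPM in WT). Over all tested genes, 11.3% were higher and 10.9% lower in KO (edgeR adjusted p below 0.05). The shares called of T cell markers (25%) and stromal and endothelial markers (33.3%) lay nearest to the 22.2% of all tested genes. By Xist and Ddx3y, each genotype held 1 female and 1 male mouse.

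**Figure D1:**
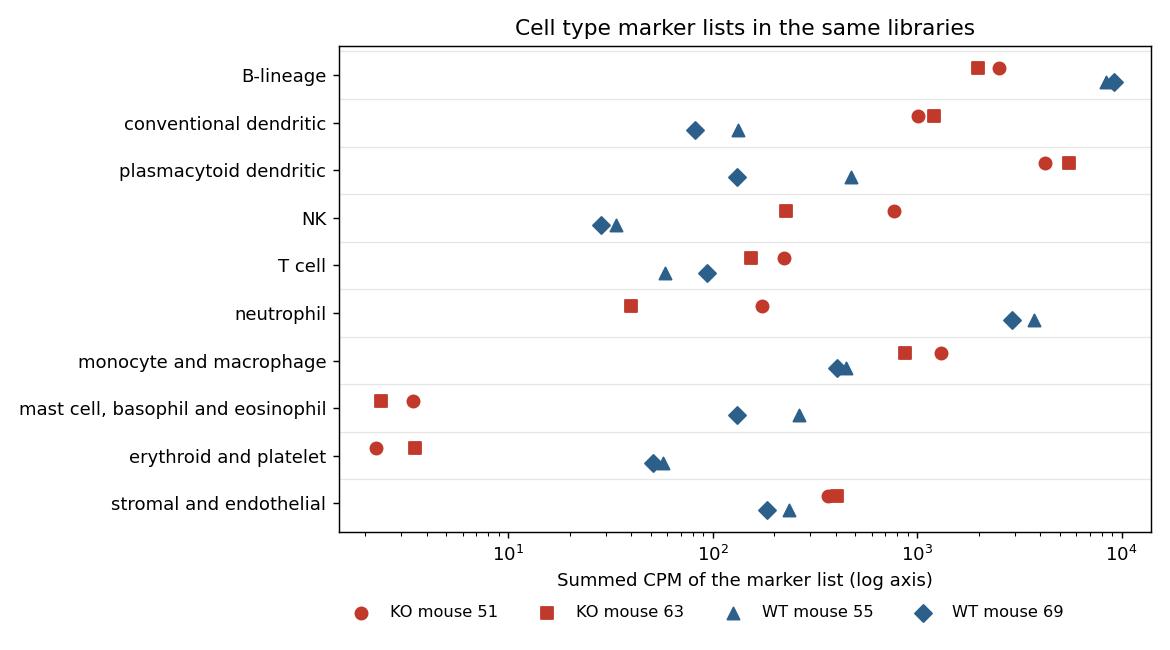
Summed CPM of each cell type marker list (horizontal log axis) in each of the 4 libraries, with KO mice above WT mice in each row. Dendritic, NK, T cell, monocyte and macrophage, and stromal and endothelial marker sums were higher in both KO libraries. B-lineage, neutrophil, mast cell and erythroid sums were lower. The neutrophil sum was 174 and 40.0 CPM in KO and 3746 and 2909 CPM in WT.

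The integrin transcripts of KO and WT cells were compared within a test of all 13507 genes that passed the filter on low counts, which all 10 integrins did. Itgax, Itgb7, Itgal, Itgb2 and Itgb1 rose in KO, Itgam and Itga6 fell, and Itga4, Itga5 and Itgae did not pass. That is 7 of 10 at an adjusted p below 0.05 in edgeR's quasi-likelihood test, beside 22.2% of all tested genes, with 5 of 10 higher (11.3% of all genes) and 2 of 10 lower (10.9% of all genes). The median log2 fold change of the 10 was 0.79, and -0.02 over all tested genes. The KO and WT libraries did not overlap for 8 of the 10, all but Itga5 and Itgae, as for 67.5% of all tested genes, with KO above WT for 5 (33% of all genes) and below for 3 (34.6% of all genes). Fewer cells of a type and less RNA per cell cannot be told apart in such bulk samples, and the part of the marker shifts above in these results was not tested.

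**Figure D2:**
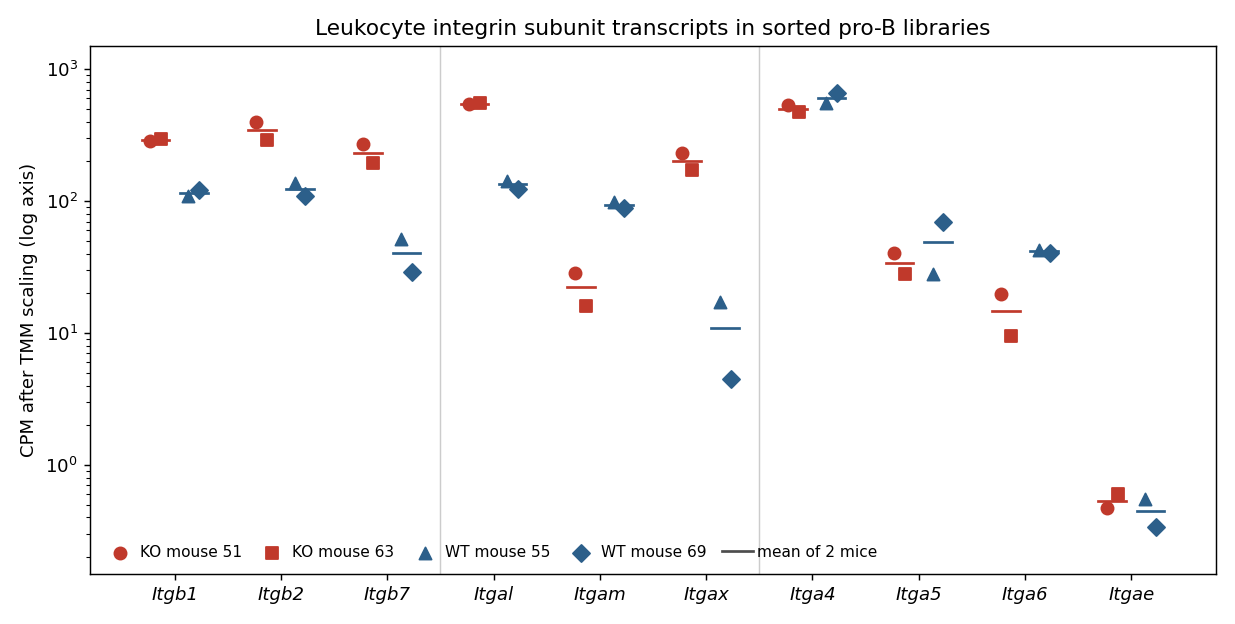
CPM of each integrin subunit gene (log axis) in each library, KO mice left of WT mice, with a line at the mean of 2 mice. The 3 beta subunit genes, Itgal and Itgax were higher in both KO mice than in both WT mice, Itgam and Itga6 were lower, and Itgae stayed below 0.6 CPM in all 4.

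All 3 beta subunit genes rose. Itgb1, the common partner of many alpha chains (chromosome 8, 128685654 to 128733200, plus strand, GENCODE M21 on GRCm38 as for all coordinates of genes here), was at 284 and 294 CPM in KO mice 51 and 63, against 109 and 122 CPM in WT mice 55 and 69. Its log2 fold change was 1.32 ± 0.14 with an edgeR adjusted p of 0.00662, and its libraries within each genotype lay close together. Itgb2, the chain whose loss in humans causes leukocyte adhesion deficiency (chromosome 10, 77530252 to 77565708, plus strand), was at 397 and 291 CPM in KO and at 137 and 110 CPM in WT. That gave a log2 fold change of 1.48 ± 0.22 (adjusted p 0.0126). Itgb7, whose pair with Itga4 directs lymphocytes to the gut (chromosome 15, 102215995 to 102231944, minus strand), was at 271 and 193 CPM in KO and at 51.7 and 29.1 CPM in WT. Of the beta chains its fold change was the largest under every alternative, at 2.52 ± 0.33 on the log2 scale (adjusted p 0.0102). For Itgb2 and Itgb7, the higher KO library was that of mouse 51 and the higher WT library that of mouse 55.

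Because every beta chain rose, their proportions were compared per kilobase of merged exon sequence, within each library. Itgb7 made up 32.9% and 29.4% of the summed beta subunit CPM per kilobase in KO mice 51 and 63, against 20.6% and 13.7% in WT mice 55 and 69. The share of Itgb2 was 43.7% and 40.2% in KO and 49.8% and 47.1% in WT, and that of Itgb1 23.4% and 30.4% in KO and 29.5% and 39.2% in WT. Itgb7 thus gained 13.9 percentage points on average, and its KO and WT libraries did not overlap. The shares of Itgb1 did overlap (30.4% in KO mouse 63 lay above 29.5% in WT mouse 55). No test was run on these shares: an exact permutation test of 2 against 2 libraries cannot go below 0.333.

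**Figure D3:**
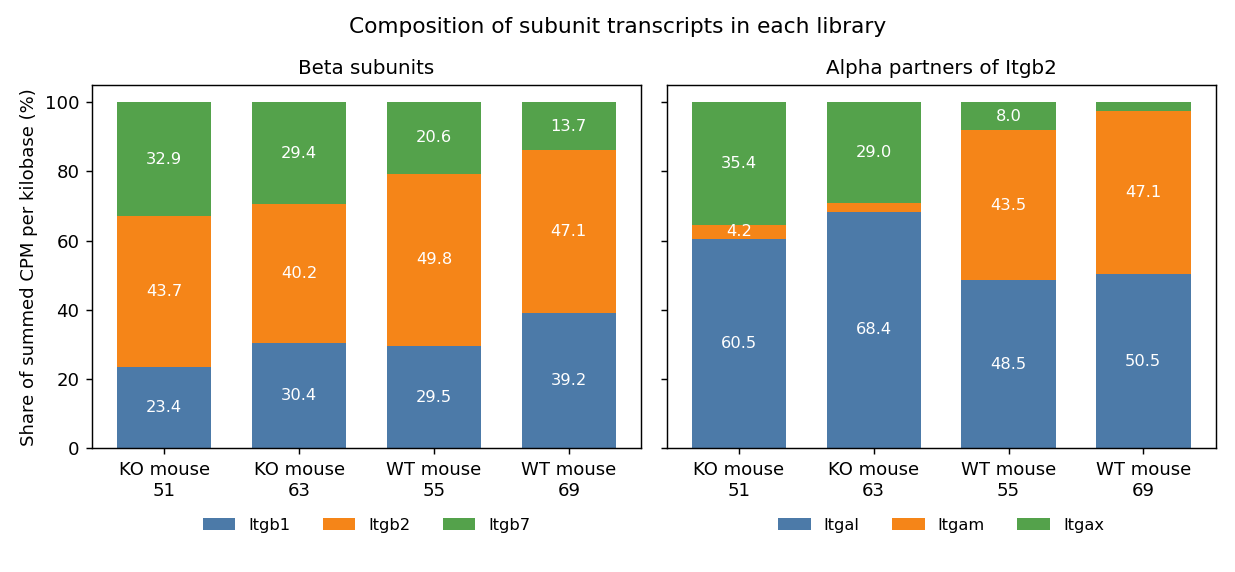
Shares (%) of summed CPM per kilobase within the beta subunits (left) and within the alpha partners of Itgb2 (right), 1 bar per library with KO mice left of WT mice. Itgb7 held 32.9% and 29.4% of the beta pool in KO against 20.6% and 13.7% in WT, and Itgam held 4.18% and 2.57% of the alpha partners in KO against 43.5% and 47.1% in WT.

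The alpha partners of Itgb2 moved in both directions. Itgal, the alpha chain of LFA-1 that binds ICAM-1 and ICAM-2 (chromosome 7, 127296260 to 127335138, plus strand), was at 541 and 555 CPM in KO mice, against 143 and 124 CPM in WT mice. Its log2 fold change of 2.04 ± 0.16 had the lowest adjusted p of the 10 genes (0.00497 by edgeR) and lay between 1.94 and 2.18 with any library left out. Itgax, the CD11c chain (chromosome 7, 128129547 to 128150657, plus strand), was at 231 and 172 CPM in KO and at 17.2 and 4.47 CPM in WT. Both KO libraries were far above either WT library, and WT mouse 55 was well above WT mouse 69. The fitted log2 fold change of Itgax was 4.21 ± 0.65 (adjusted p 0.0145), or 5.53 without WT mouse 55 and 3.55 without WT mouse 69. The plasmacytoid dendritic marker sum was also higher in WT mouse 55 (477 CPM) than in WT mouse 69 (132 CPM). In KO the sum was 4228 CPM in mouse 51 and 5562 CPM in mouse 63, but single markers of the list went either way. Siglech (1262 and 2305 CPM) and Pacsin1 (187 and 301 CPM) were lower in mouse 51. Klk1 (236 and 149 CPM) and Lag3 (200 and 163 CPM) were higher in mouse 51. The part of these marker levels in the level of Itgax was not tested.

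Itgam, the CD11b chain of the complement receptor Mac-1 (chromosome 7, 128062640 to 128118491, plus strand), went the other way. It was at 28.6 and 16.0 CPM in KO mice and at 98.0 and 88.5 CPM in WT mice, a log2 fold change of -2.06 ± 0.30 with an edgeR adjusted p of 0.0126. KO mouse 51 had more of it than KO mouse 63, as it had more of the summed neutrophil markers (174 and 40.0 CPM) and NK markers (767 and 228 CPM), whose part was not tested. In the GENCODE annotation 68.7% of the merged exon bases of Itgam are also assigned to the overlapping model Gm49368 on the same strand; Gm49368 has no row in the count table, and the treatment of such reads was not stated in the sources used here. Per kilobase, Itgam made up 4.18% and 2.57% of the 3 alpha partners of Itgb2 in KO mice, against 43.5% and 47.1% in WT mice. Itgax held 35.4% and 29.0% in KO and 8.0% and 2.49% in WT, and Itgal 60.5% and 68.4% in KO and 48.5% and 50.5% in WT. In each genotype Itgal was therefore the most abundant of the 3 per kilobase, with Itgax next in KO and Itgam next in WT.

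Itgam and Itgax are neighbours, both transcribed from the plus strand with 11.05 kb between the end of Itgam and the start of Itgax, yet they moved in opposite directions. The 250 bases before each RefSeq start (GRCm38.p6, plus strand, chr7:128062390-128062639 for Itgam and chr7:128129300-128129549 for Itgax) are shown to set the 2 neighbouring promoters side by side. Capitals mark GAGGAA or its reverse complement TTCCTC, a spelling found in sites for PU.1. PU.1 is a myeloid and lymphoid factor known from human promoters of this gene group.
Itgam: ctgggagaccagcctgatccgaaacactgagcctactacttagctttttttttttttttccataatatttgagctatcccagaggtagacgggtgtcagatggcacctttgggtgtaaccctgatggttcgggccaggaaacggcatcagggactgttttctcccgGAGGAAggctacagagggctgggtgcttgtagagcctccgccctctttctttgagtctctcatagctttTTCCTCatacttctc
Itgax: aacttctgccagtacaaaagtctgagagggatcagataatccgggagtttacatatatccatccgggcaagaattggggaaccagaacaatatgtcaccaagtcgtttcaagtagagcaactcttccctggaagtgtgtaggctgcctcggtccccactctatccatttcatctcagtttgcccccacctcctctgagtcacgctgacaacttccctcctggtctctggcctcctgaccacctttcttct
The Itgam window held 2 matches to the full 6 letters and the Itgax window 0. The shorter stretch GGAA within them does occur in the Itgax window. The letters GAGGAA, on either strand, occur in 23.3% of all 32851 RefSeq promoter windows of this length, and in 3 of the 6 integrins with a window (Itga5, Itgam and Itgb1, but not Itga4, Itgax or Itgb7). Itga6, Itgae, Itgal and Itgb2 had none to search. TGTGGT, the core of RUNX sites, was found in 1 of the 6 (Itga4) and in 14% of all windows, and GGGCGG, a GC box, in 4 of the 6 (Itga4, Itga5, Itgam and Itgb1) and in 32.7% of all windows. These are matches of letters and no measure of binding.

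Among the alpha chains that pair with Itgb1 or Itgb7, Itga6 fell and Itga4, Itga5 and Itgae did not pass the test. Itga4, the alpha chain of VLA-4 (chromosome 2, 79255426 to 79333123, plus strand), was at 532 and 471 CPM in KO mice and at 553 and 662 CPM in WT mice. The libraries did not overlap, but the log2 fold change of -0.28 ± 0.18 did not pass (adjusted p 0.312 by edgeR), with a 95% interval of -0.73 to 0.17. Of its merged exon bases, 8.04% are shared with Cerkl on the opposite strand, which had 46 to 77 counts in the 4 libraries. Itga6, a laminin-binding chain used by early progenitors (chromosome 2, 71745616 to 71858416, plus strand), was at 19.6 and 9.56 CPM in KO and at 42.8 and 40.2 CPM in WT. It fell with a log2 fold change of -1.51 ± 0.36 (adjusted p 0.0375), or -2.12 without KO mouse 51, and without KO mouse 63 the value was -1.08 and the adjusted p 0.0664. Itga5, the fibronectin-binding chain (chromosome 15, 103344286 to 103366763, minus strand), was at 40.1 and 27.8 CPM in KO and at 28.0 and 69.7 CPM in WT, with overlapping groups. Its log2 fold change of -0.52 ± 0.45 (adjusted p 0.443, 95% interval -1.65 to 0.61) depended on the WT mice, at 0.28 without WT mouse 69 and at -1.0 without WT mouse 55, where the adjusted p was 0.0293.

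Itgae, the alpha chain that binds E-cadherin with Itgb7 (chromosome 11, 73090583 to 73147446, plus strand), was close to the limit of detection throughout. It had 19 and 18 counts in KO mice 51 and 63 and 18 and 9 counts in WT mice 55 and 69, which is 0.471 and 0.597 CPM in KO and 0.550 and 0.338 CPM in WT. The log2 fold change of 0.25 ± 0.58 had an edgeR adjusted p of 0.786 and a 95% interval of -1.21 to 1.71, which includes the fold changes of Itgb1 and Itgb2, so that a change of their size was not detectable at this depth. Per kilobase, the log2 ratio of Itgae to Itgb7 was -9.90 and -9.06 in KO mice and -7.28 and -7.15 in WT mice.

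**Figure D4:**
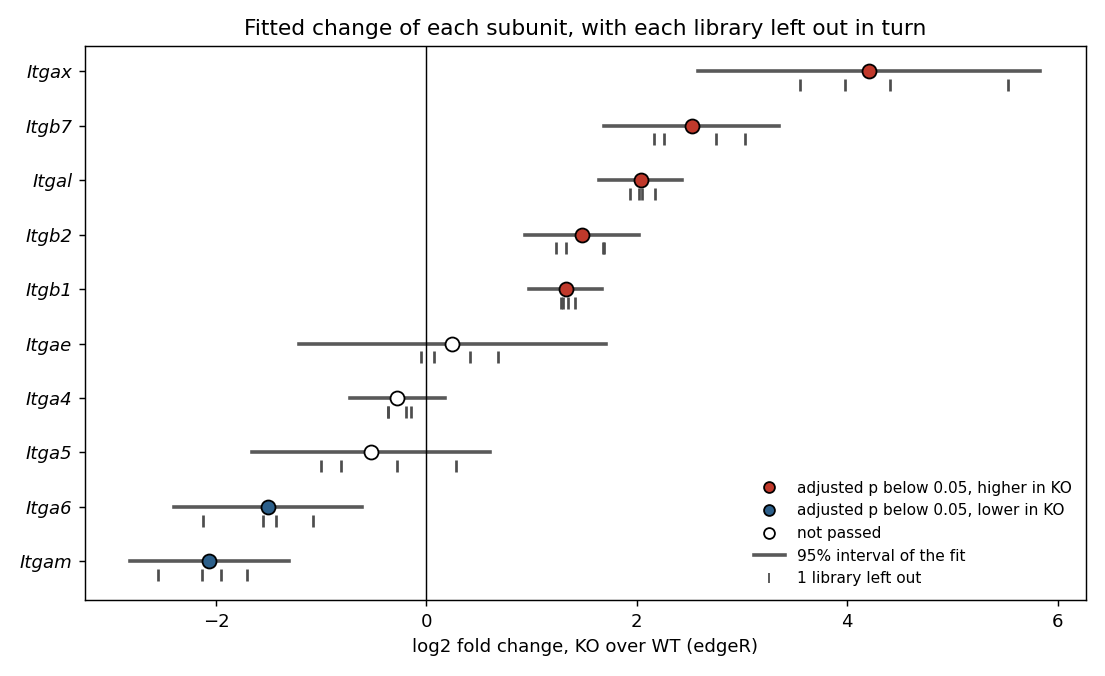
Log2 fold change of each subunit gene, KO over WT, from edgeR (points), with the 95% interval of the fit (bars) and the values with each library left out in turn (ticks below). The 5 genes that rose and the 2 that fell kept their direction with any library left out, and the ticks of Itga5 and Itgae lie on both sides of 0.

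Ratios of alpha to beta transcripts per kilobase shifted in the same libraries. The log2 ratio of Itga4 to Itgb1 was -0.87 and -1.10 in KO mice 51 and 63, against 0.57 and 0.66 in WT mice 55 and 69, so that Itga4 transcript lay below Itgb1 in KO and above it in WT. Against Itgb7, the log2 ratio of Itga4 was -1.36 and -1.05 in KO and 1.08 and 2.17 in WT. The ratio of Itgal to Itgb2 was -0.66 and -0.17 in KO and -1.05 and -0.93 in WT on the log2 scale, a difference of 0.57, or 0.33 without KO mouse 63 and 0.81 without KO mouse 51. That of Itgam to Itgb2 was -4.51 and -4.91 in KO and -1.21 and -1.03 in WT, while that of Itgax to Itgb2 was -1.43 and -1.41 in KO and -3.65 and -5.27 in WT, a difference of 3.04, or 3.85 without WT mouse 55 and 2.23 without WT mouse 69. Itga6 to Itgb1 stood at -5.00 and -6.09 in KO and at -2.49 and -2.75 in WT, and Itga5 to Itgb1 at -3.10 and -3.68 in KO and at -2.23 and -1.08 in WT. The KO and WT libraries did not overlap for any of the 8 ratios. For Itga4 to Itgb1, Itga4 to Itgb7, Itga6 to Itgb1 and Itgam to Itgb2 this was fixed by the single genes. There the alpha gene lay lower and the beta gene higher in both KO libraries than in both WT libraries. Several of the 8 ratios share a beta gene, and the share of other gene pairs without overlap was not computed. The ratios describe transcripts and not paired protein, and no test was run on them.

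In order of mean CPM per kilobase, the KO libraries had Itgb2 first at 113 ± 24.5 (SD, n = 2), then Itgb7 (83.8 ± 19.9), Itgal (83.4 ± 1.51), Itgb1 (70.9 ± 1.76), Itgax (42.0 ± 8.74), Itga4 (35.9 ± 3.10), Itga5 (6.88 ± 1.77), Itgam (4.44 ± 1.78), Itga6 (1.62 ± 0.788) and Itgae (0.117 ± 0.0196). In KO, the libraries of Itgb7 overlapped those of Itgb2, Itgal and Itgb1, those of Itgax overlapped Itga4, and those of Itga5 overlapped Itgam. The WT libraries had Itga4 first at 43.5 ± 5.51, then Itgb2 (40.5 ± 6.38), Itgb1 (28.3 ± 2.29), Itgal (20.3 ± 2.05), Itgam (18.6 ± 1.34), Itgb7 (14.6 ± 5.77), Itga5 (9.91 ± 5.97), Itga6 (4.60 ± 0.199), Itgax (2.26 ± 1.88) and Itgae (0.0970 ± 0.0327). In WT the overlapping neighbours were Itga4 with Itgb2, Itgal with Itgam, Itgam with Itgb7, and Itgb7 with Itga5. By the mean, Itga4 ranked 6 in KO and 1 in WT, although in WT mouse 55 Itgb2 lay above Itga4 and the CPM of Itga4 did not pass the test. With the length of the longest transcript in place of the merged exons, Itga4 lay above Itgax in KO, and Itgal above Itgb7.

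Within each sex the direction was the same for the 7 genes that passed. That was fixed in advance, because the KO and WT libraries of these genes did not overlap. The log2 ratio of KO to WT CPM of Itgax was 3.32 in the females (KO mouse 63, WT mouse 55) and 5.69 in the males (KO mouse 51, WT mouse 69). For Itgb7 it was 1.90 in the females and 3.22 in the males, for Itgb2 1.08 and 1.85, for Itgal 1.96 and 2.12 and for Itgb1 1.43 and 1.22. Itgam had log2 ratios of -2.62 in the females and -1.63 in the males, and Itga6 of -2.16 and -1.04. With 1 mouse of each sex per genotype, a difference between the sexes was not tested.

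The genes whose 4 library values followed those of a beta chain most closely, by the distance between gene-centred log2 CPM, are given as a description over 4 libraries. For Itgb1 they included Notch1 (distance 0.059), a receptor gene at 319 and 318 CPM in KO and 123 and 140 CPM in WT, and Fbxo6 (0.074). For Itgb2 they were Sesn2 (0.091), Capn3 (0.131) and Slc8b1 (0.154), and for Itgb7 Sh2d1b1 (0.226), Pgam2 (0.271) and Arrdc4 (0.288). Sh2d1b1, which encodes an adaptor of NK cell receptors, was at 5.97 and 3.68 CPM in KO and 1.16 and 0.526 CPM in WT.

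Of 17 other integrin subunit genes, 12 were tested, 2 rose, 3 fell and 7 did not pass, with a median log2 fold change of -0.06. That is 41.7% of the tested list, beside 22.2% of all tested genes. Itgad, the CD11d chain and the next gene after Itgax, was at 23.4 and 24.7 CPM in KO and at 5.72 and 4.66 CPM in WT (log2 fold change 2.21 ± 0.23, edgeR adjusted p 0.00675). Its exons overlap by 19.7% (890 bases) with other models. Of these, 70 bases are shared with the plasmacytoid dendritic marker Cox6a2 on the opposite strand (222 and 220 CPM in KO, 24.5 and 5.30 CPM in WT). The strand setting of the counting was not stated in the sources used here. Itgb3, the beta chain of the vitronectin receptor, rose (78.0 and 90.8 CPM in KO, 31.7 and 12.6 CPM in WT). Itga9, a further partner of Itgb1, fell to 1.11 and 0.398 CPM in KO, against 39.5 and 19.8 CPM in WT, a log2 fold change of -5.25 ± 0.62, or -6.20 without KO mouse 51 and -4.64 without WT mouse 55. Itgb2l, a relative of Itgb2 known from neutrophil precursors, fell to 1.31 and 0.199 CPM in KO, against 28.2 and 28.0 CPM in WT, beside the fall of all 8 neutrophil markers, whose part was not tested. The log2 fold change of Itgb2l was -5.16, or -7.11 without KO mouse 51 and -4.41 without KO mouse 63, and that of Itgb3 was 1.93, or 2.78 without WT mouse 55. Itga2b, the platelet and progenitor chain CD41, also fell (0.644 and 1.03 CPM in KO, 3.24 and 3.72 CPM in WT). Without KO mouse 51 the adjusted p was 0.115 for Itga2b and 0.0570 for Itgb3, and 3 of the list passed in place of 5. Without KO mouse 63 they were 0.0679 and 0.0804, and Itga2b also missed the threshold without WT mouse 55 (0.0570) or WT mouse 69 (0.0629).

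Of 26 genes that switch integrins on or tie them to actin, 23 were tested, 5 rose, 1 fell and 17 did not pass, with a median of 0.38. The share called was 26.1%, close to the 22.2% of all tested genes. Zyx, encoding the focal adhesion protein zyxin, rose to 204 and 235 CPM in KO, against 61.9 and 67.8 CPM in WT (log2 fold change 1.76 ± 0.15, edgeR adjusted p 0.00497). Ptk2, the gene of focal adhesion kinase, rose to 26.0 and 35.2 CPM in KO, against 5.44 and 4.32 CPM in WT. Fyb, the gene of the adaptor ADAP that links antigen receptors to integrins, rose to 441 and 603 CPM in KO, against 61.7 and 19.4 CPM in WT. Its log2 fold change was 3.68, or 4.79 without WT mouse 55 and 3.08 without WT mouse 69. Rap1a, a small GTPase that recruits talin, had a log2 fold change of 0.86 ± 0.18, and Apbb1ip, which encodes RIAM, the link between Rap1 and talin, one of 0.55 ± 0.14. Parvb, beta-parvin of the integrin-linked kinase complex, fell to 1.41 and 0.896 CPM in KO, against 12.8 and 30.0 CPM in WT (log2 fold change -4.20, or -3.46 without WT mouse 69). The core activators, named here for their role and outside the naming rule, did not pass: talin gene Tln1 was at 780 and 738 CPM in KO and at 610 and 553 CPM in WT (adjusted p 0.153), and kindlin-3 gene Fermt3 at 252 and 247 CPM in KO and at 212 and 232 CPM in WT (adjusted p 0.404). Without KO mouse 63, Rap1a had an adjusted p of 0.128 and Apbb1ip of 0.222, and Apbb1ip also missed the threshold without KO mouse 51 (0.168) and without WT mouse 69 (0.104). With sex as a block, 13 genes of the list passed in place of 6, beside 4323 of all tested genes in place of 2992.

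Among 10 genes that restrain integrins or turn Rap1 off, 2 rose, 2 fell and 6 did not pass, with a median of -0.57, so that 40% were called, beside 22.2% of all tested genes. Dok3, an adaptor expressed in B cells and listed here as a member of the Dok family, fell to 15.6 and 18.5 CPM in KO, against 545 and 413 CPM in WT. Its log2 fold change was -4.81 ± 0.23 with an edgeR adjusted p of 0.00431. It fell beside 8 of 10 B-lineage markers, whose part was not tested, nor was an effect of Dok3 on integrins. Sharpin, an inhibitor that binds integrin alpha tails, fell to 81.3 and 80.1 CPM in KO, against 133 and 124 CPM in WT. Dok2 rose to 42.7 and 20.2 CPM in KO, against 5.29 and 8.16 CPM in WT, and Rap1gap2, a GTPase activator for Rap1, rose to 37.8 and 32.8 CPM in KO, against 11.4 and 8.0 CPM in WT. Without KO mouse 51, Sharpin (adjusted p 0.112) and Dok2 (0.0574, with a log2 fold change of 1.59 in place of 2.23) missed the threshold and 2 of the list passed in place of 4, and without KO mouse 63 Sharpin did (0.139). The count was 7 with DESeq2 and 7 with sex as a block, where 3956 and 4323 of all genes passed in place of 2992.

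**Figure D5:**
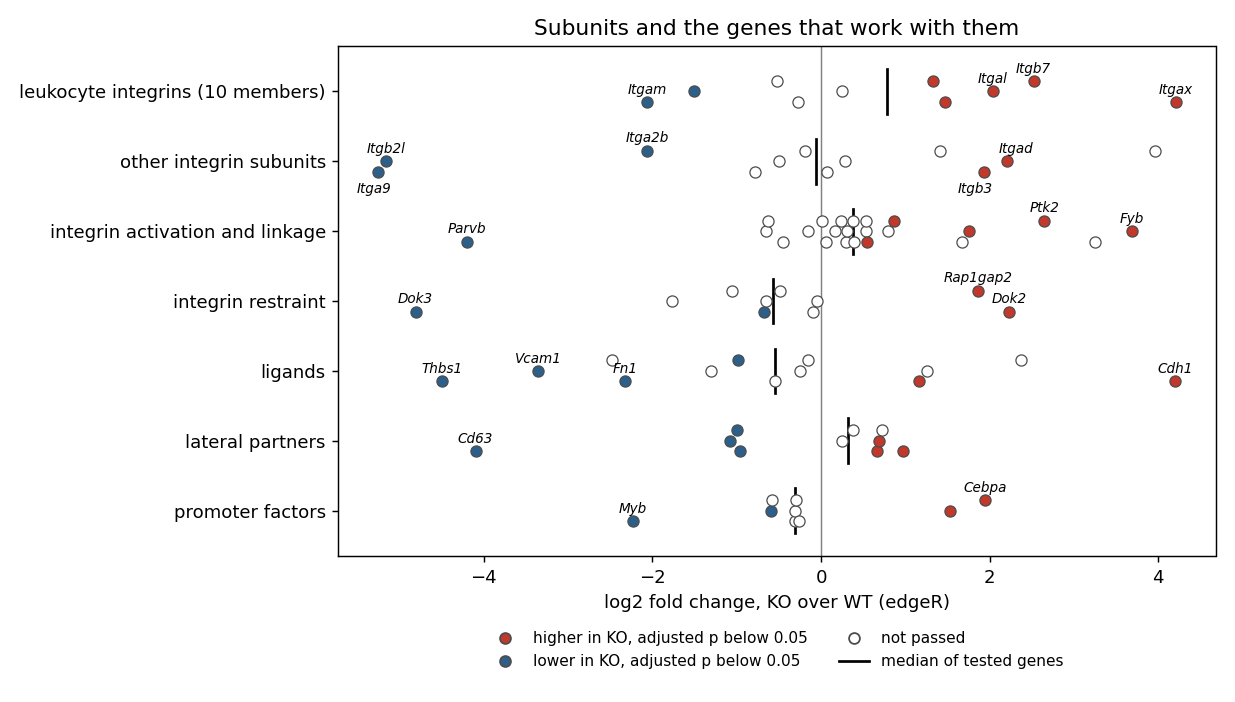
Log2 fold changes, KO over WT, from edgeR for each tested gene of the integrin subunits and of 6 related lists (rows), coloured by call, with the median of each row as a black line. The 10 members had a median of 0.79, against medians between -0.57 and 0.38 for the other rows.

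Of 18 ligand genes, 13 were tested, 2 rose, 4 fell and 7 did not pass, with a median of -0.54, and 46.2% of those tested were called, beside 22.2% of all tested genes. Cdh1, E-cadherin, the ligand of the pair of Itgae and Itgb7, rose to 137 and 165 CPM in KO, against 13.9 and 2.37 CPM in WT (log2 fold change 4.20 ± 0.79, edgeR adjusted p 0.0215). The value was 6.02 without WT mouse 55 and 3.44 without WT mouse 69. Icam1, a ligand of LFA-1 and Mac-1, rose to 111 and 77.7 CPM in KO, against 44.4 and 40.0 CPM in WT, while Icam2, a second ligand of LFA-1, fell to 34.6 and 34.2 CPM in KO, against 70.5 and 66.0 CPM in WT. Vcam1, the ligand of VLA-4 normally shown by stromal cells and macrophages, fell to 3.89 and 1.10 CPM in KO, against 28.0 and 23.6 CPM in WT, with a log2 fold change of -3.35, or -4.55 without KO mouse 51 and -2.73 without KO mouse 63. Fn1, fibronectin, fell to 3.67 and 1.89 CPM in KO, against 9.05 and 18.9 CPM in WT, and Thbs1, thrombospondin 1, to 0.669 and 0.299 CPM in KO, against 9.26 and 13.2 CPM in WT. The log2 fold change of Fn1 was -2.32, or -1.70 without WT mouse 69, and that of Thbs1 was -4.50, or -5.21 without KO mouse 51. The erythroid and platelet markers, of which 4 of the 6 tested fell, stood at 2.25 and 3.52 CPM summed in KO. In WT they stood at 57.0 and 51.2 CPM. Of 7 monocyte and macrophage markers, 2 rose and 3 fell, and of 6 stromal and endothelial markers, 1 rose and 1 fell. The part of any of these cell types in the values of the ligand genes was not tested. Icam1 missed the threshold without KO mouse 51 (adjusted p 0.0727), Icam2 without KO mouse 51 (0.0594) or KO mouse 63 (0.0706), and Fn1 without KO mouse 63 (0.0933).

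Of 10 genes of membrane proteins that sit beside integrins, 3 rose, 4 fell and 3 did not pass, with a median of 0.32, which is 70% called, beside 22.2% of all tested genes. The tetraspanin gene Cd63 fell to 1.51 and 0.597 CPM in KO, against 20.8 and 16.0 CPM in WT (log2 fold change -4.10 ± 0.50, or -4.94 without KO mouse 51; edgeR adjusted p 0.00879). Cd37 (339 and 385 CPM in KO, 806 and 637 CPM in WT) and Cd81, a further tetraspanin gene (60.7 and 44.0 CPM in KO, 89.8 and 131 CPM in WT), fell too. Cd47, the integrin-associated protein, rose to 379 and 437 CPM in KO, against 237 and 180 CPM in WT. Slc3a2, whose product CD98 binds beta tails, rose to 144 and 140 CPM in KO, against 86.8 and 88.8 CPM in WT, and Bsg, basigin, to 218 and 204 CPM in KO, against 122 and 145 CPM in WT. Without KO mouse 51, 2 of the list passed, with adjusted p-values of 0.115, 0.0552, 0.102 and 0.151 for Cd37, Cd47, Slc3a2 and Bsg. Without KO mouse 63, 1 passed, with 0.0741, 0.103, 0.102, 0.122 and 0.146 for Cd37, Cd47, Slc3a2, Bsg and Cd81, and without WT mouse 55 Bsg was at 0.0582.

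Of 9 transcription factor genes known from human or mouse leukocyte integrin promoters, 2 rose, 2 fell and 5 did not pass, with a median of -0.31, or 44.4% called, beside 22.2% of all tested genes. Runx3, a factor of cytotoxic lymphocytes and dendritic cells known to act at Itgae in mouse T cells, rose to 120 and 102 CPM in KO, against 31.7 and 45.3 CPM in WT (log2 fold change 1.53 ± 0.22, edgeR adjusted p 0.0121). Cebpa, a myeloid factor, rose to 23.2 and 17.2 CPM in KO, against 6.24 and 4.21 CPM in WT. Myb, a progenitor factor, fell to 356 and 320 CPM in KO, against 1581 and 1591 CPM in WT. Spi1, the PU.1 gene, fell to 56.2 and 54.5 CPM in KO, against 86.4 and 80.5 CPM in WT, a log2 fold change of -0.59 ± 0.13. Spi1 missed the threshold without WT mouse 55 (adjusted p 0.0835), KO mouse 51 (0.152) or KO mouse 63 (0.211).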

How the data were processed

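RNA from sorted pro-B cells of 4 mice was sequenced, 1 library per mouse and 2 mice per genotype, so p-values measure the spread between mice. Per the labels' protocols, libraries came from a low input RNA kit without described molecular identifiers. The submitters' processing notes name STAR 2.7.4a, featureCounts, Subread 2.0.0 and DESeq2 with GRCm38 and mm10; which annotation and strand option were used, and how multiply mapped reads were treated, was not stated there. The authors deposited raw counts for 24411 symbols, the main data here, and a table of normalized signal, each value being the raw count times 1 factor per library (13001 symbols matched), used as an alternative.

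Genes were kept by filterByExpr (minimum count 10, total 15), scaled by TMM and tested with edgeR 4.0.16 (glmQLFit, glmQLFTest, R 4.3.3) on all 4 libraries without covariates, and p-values were adjusted by Benjamini-Hochberg over 13507 genes at a threshold of 0.05. SE is the log2 fold change over the square root of F, and the 95% interval uses its degrees of freedom. The procedure was tested on counts simulated with the dispersions of these data. That simulation held no shift in cell mixture, so it cannot show how the procedure behaves under one. Gene models and merged exon lengths are from GENCODE M21 (GRCm38). A level of 3 counts in a library equals 0.0743 to 0.113 CPM. Close paralogs such as Itgam, Itgax and Itgad may share reads. Replicates differed far beyond counting noise (mean chi-square per gene 61.0 for KO, 84.5 for WT). Sex was read from Xist and the Y-linked gene Ddx3y.

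The members and lists were chosen with earlier results of these data known. Named genes are the 10 members, Tnpo3, sort marker genes, in each list at most 6 genes that passed (lowest adjusted p first), and the 3 nearest patterns to each beta chain, of which 1 is not reported here. The 12 alternatives changed the tool (DESeq2 1.42.0, limma-voom from limma 3.58.1, or limma on the log2 of the deposited normalized signal with a pseudocount of 1), the scaling (DESeq2 size factors or total counts), the filter (absent, or at least 1 CPM in 2 libraries and 50 counts on average), the design (sex as a block) or the libraries (each left out in turn).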

Additional observations from a re-analysis of the deposited data

How the results depend on the processing

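The 5 integrin genes that rose and Itgam kept their direction and passed under all 12 alternatives, and Itga6 under 11 of 12. With a library left out, log2 fold changes ranged from 3.55 to 5.53 for Itgax, 2.17 to 3.03 for Itgb7, 1.94 to 2.18 for Itgal, 1.23 to 1.69 for Itgb2, 1.28 to 1.41 for Itgb1, -2.55 to -1.70 for Itgam, -2.12 to -1.08 for Itga6, -1.0 to 0.28 for Itga5, -0.37 to -0.14 for Itga4, -0.048 to 0.68 for Itgae and -1.16 to -0.94 for Tnpo3. Without KO mouse 63 Itga6 and Tnpo3 did not pass (adjusted p 0.0664 and 0.0603), and without WT mouse 55 Itga5 did (0.0293). The number of integrin genes called ranged from 6 to 8, and that of all genes from 1277 to 3229, against 2992 with all libraries; these fits have fewer samples. List counts ranged from 3 to 4 (other subunits), 5 to 9 (activation), 2 to 5 (restraint), 4 to 7 (ligands), 1 to 6 (lateral partners) and 3 to 4 (promoter factors). With sex as a block, 2137 genes were higher and 2186 lower, 13 activation genes passed in place of 6, and 7 restraint genes in place of 4, as with DESeq2; the cause was not tested. The share of Itgam among the alpha partners of Itgb2, a measure added after seeing the data, differed by -41.9 percentage points between KO and WT, or by -38.5 with the longest transcript as length. The genotypes share no mouse number, so no pairing by number was made; the sex block sets KO mouse 63 beside WT mouse 55 and KO mouse 51 beside WT mouse 69, and all 7 integrin genes called stayed called in it. With 2 mice per genotype, small changes of low genes such as Itgae were not detectable.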
